A study of Mus musculus with 4 samples.

Results

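Expression of 8 chemokine genes was measured in muscle satellite cells (MuSCs), the stem cells of skeletal muscle, from sham-operated and overloaded mouse plantaris muscle. The members, a set drawn up with earlier results of these data known, were found in the table by gene symbol. They were Ccl2, Ccl7, Ccl9, Cxcl1, Cxcl10, Cxcl12, Cxcl14 and Cx3cl1, which are 8 of the 19353 genes in the deposited count table. All cells came from Pax7-CreERT2:Rosa-YFP mice given tamoxifen, in which a Cre recombinase expressed from the MuSC gene Pax7 switches on a yellow fluorescent protein, and fluorescence was the sorting criterion given for the RNA-seq. The overloaded group had the distal tendons of the gastrocnemius and soleus muscles cut so that the plantaris carried their load, the sham group had skin incisions only, and muscles were taken 4 days later. Each group had 2 libraries, each made from 100 sorted cells. Elsewhere in the study sham muscle was the contralateral muscle of the operated mouse, and whether sham and overloaded libraries here share animals was not given in the sources used here. Neither the animal behind each library nor the age of the mice was given either, so p-values measure only the spread between libraries, which may be technical.

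Chemokines are small secreted proteins that set the direction in which leukocytes and other cells move by binding receptors of the G protein-coupled family. The CXC chemokine Cxcl1 attracts mainly neutrophils, and the CC chemokine Ccl2 attracts mainly monocytes. Cxcl12 retains or guides cells that carry Cxcr4, among them myogenic cells. Several inflammatory members are known targets of the transcription factor NF-κB, whereas Cxcl12 is generally regarded as a homeostatic chemokine.

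The libraries were prepared by CEL-Seq2, which counts 1 tag near the 3′ end of each captured transcript and marks it with a unique molecular identifier (UMI), so that counts of different genes were compared without dividing by gene length. Totals were 269683 and 260488 UMIs for sham and 387955 and 483528 for overloaded MuSCs, or 2697, 2605, 3880 and 4835 UMIs per sorted cell. The unequal totals matter for every gene below, because a gene can take a smaller share of an overloaded library while its number of UMIs per tube is unchanged. Unless stated otherwise, levels are counts scaled to a common library total (CPM, with TMM factors), and fold changes are overloaded over sham. A count of 3 UMIs corresponded to 13.1, 13.6, 7.80 and 6.08 CPM in sham 1, sham 2, overloaded 1 and overloaded 2. In bulk libraries of this kind, fewer expressing cells and less RNA per cell cannot be told apart. Libraries of the same group differed somewhat more than sampling alone gives (chi-square per degree of freedom 1.31 within sham and 1.5 within overloaded), and libraries of different groups differed by more (6.34 to 7.86).

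The sorted cells carried satellite cell transcripts: all 11 markers examined passed the expression filter, and Pax7 had 118, 107, 108 and 137 UMIs in sham 1, sham 2, overloaded 1 and overloaded 2. Markers of other cells were also present and moved with the group. The 18 macrophage and leukocyte markers summed to 5 and 9 UMIs in the sham libraries and 116 and 306 in the overloaded libraries (21.8, 40.8, 302 and 620 CPM), and 12 of them, including Lyz2, Csf1r, Adgre1 and Cd74, were at 0 in both sham libraries. The most abundant of them, the lysozyme gene Lyz2, had 0, 0, 17 and 38 UMIs. Neutrophil markers were nearly absent, with 0, 0, 4 and 3 UMIs in sum over the 3 of 6 markers examined that had a row in the table, of which Mmp9 was the most abundant (0, 0, 2 and 2), and the defining S100a9 was at 0 in both sham libraries. The 10 endothelial markers summed to 30, 21, 111 and 123 UMIs, led by Fabp4, a fatty acid binding protein, with 1, 1, 58 and 54. The other 9 had 29, 20, 53 and 69 UMIs (126, 90.6, 138 and 140 CPM), and of them Tek was called lower (log2 fold change -1.41, adjusted p = 0.015, edgeR) and Flt1 was not called. The 9 mural cell markers summed to 197, 167, 488 and 716 UMIs, led by Acta2 with 115, 109, 356 and 493, or 858, 757, 1269 and 1450 CPM in sum. Without Acta2 the other 8 had 82, 58, 132 and 223 UMIs (357, 263, 343 and 452 CPM), and the groups overlapped in CPM. Of the 5 tested, 2 were called higher, Acta2 and Rgs5 (13, 4, 38 and 86 UMIs, log2 fold change 1.88), and 1 lower, against 25.8% and 26.3% of all genes. The 10 fibro-adipogenic markers summed to 940, 869, 1236 and 1367 UMIs, led by Col3a1 with 508, 461, 618 and 683, while the defining Pdgfra had 0, 0, 2 and 0. On the CPM scale these markers were lower in overloaded libraries (4092, 3937, 3214 and 2768), with Col3a1 called lower (log2 fold change -0.53, adjusted p = 0.013, edgeR) and Ly6a called higher (1, 0, 22 and 41 UMIs). Of the 5 tested, 3 were called lower, against 26.3% of all genes tested, and 4 were among the most abundant 10%, of which 70.8% were called lower. The part of these cells in the chemokine values was not tested.

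Of the 8 chemokines, 5 passed the expression filter and 4 of those passed the test at an adjusted p under 0.1, with Cxcl12 higher and Cxcl1, Ccl2 and Ccl7 lower in overloaded MuSCs (edgeR quasi-likelihood test, Benjamini-Hochberg adjustment over all 7228 genes tested). The same test called 52.1% of all genes tested, 25.8% higher and 26.3% lower, so the calls say little about chemokines as a class. Other ways of testing moved that background: DESeq2 called 21.1% of 10348 genes (9.34% higher, 11.7% lower), a fit without the filter 22% of 19353 (12.7% higher, 9.32% lower), and a fit to UMIs per tube 66.6% of 7228 (62% higher, 4.58% lower). The counts of higher and lower genes overall were 1868 and 1898, and they became 2694 and 1351 with library totals alone and 4481 and 331 when UMIs per tube were compared with no scaling, so the direction of a small change depends on the scale. The share called lower also depended on abundance, at 70.8% of the most abundant 10% of tested genes, and the counts called in each list below are to be read against these shares. A gene low in 1 group can pass the filter through the other group alone, and its direction is then partly set by the filter. Genes that did so include Ccl11, Ifit1, Ikbkg, Gpc4 and Ly6a through the overloaded libraries, and Cxcl3, Ccrl2, Lif and Tek through sham. Each of the 5 tested members had at least 10 UMIs in every library. Levels in each library are plotted below for all 8.

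**Figure D1:**
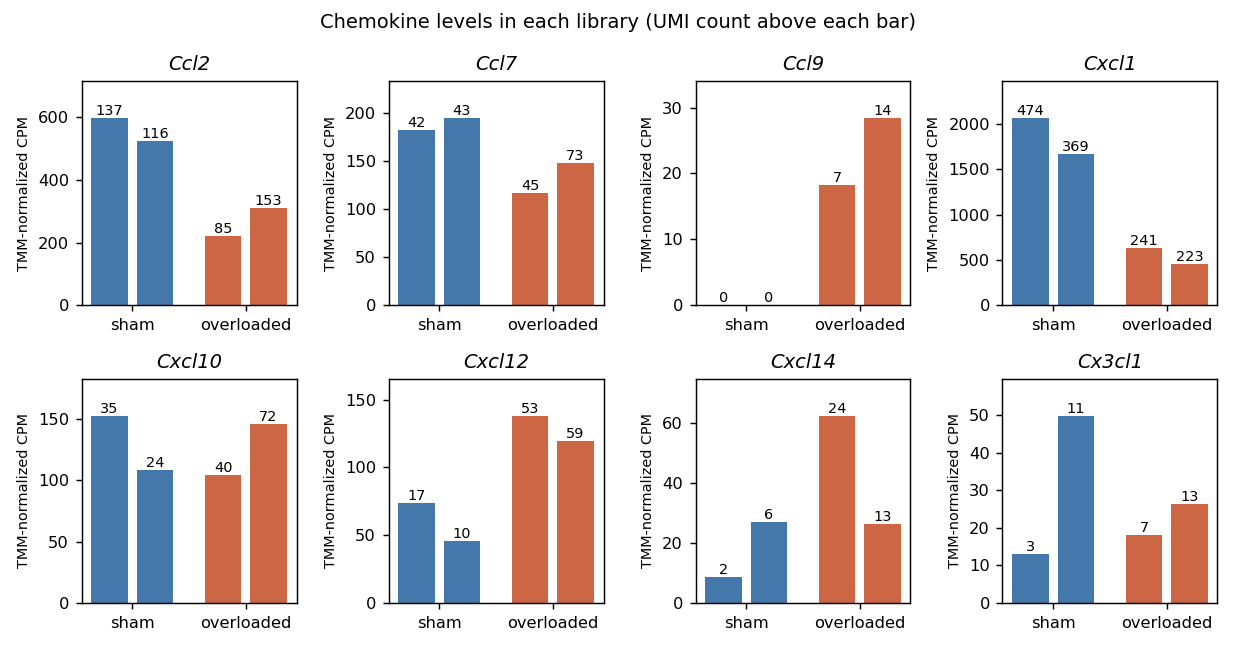
TMM-normalized CPM (vertical axis of each panel, from 0) of the 8 chemokines in the 2 sham (blue) and 2 overloaded (orange) libraries, each bar a library with its UMI count above it. Cxcl1 and Ccl2 were lower in both overloaded libraries, Cxcl12 was higher in both, and Ccl9 was at 0 in both sham libraries.

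Cxcl1 encodes a chemokine that recruits neutrophils through the receptor Cxcr2. It was the most abundant chemokine in every library, with 474 and 369 UMIs in sham and 241 and 223 in overloaded MuSCs, and it ranked 20 of the 7228 tested genes in sham and 119 in overloaded libraries. Its levels were 2063 and 1672 CPM in sham and 627 and 452 CPM in overloaded libraries. The groups did not overlap on either scale, and the lowest sham library exceeded the highest overloaded library in raw UMIs although the overloaded libraries were larger. Groups also did not overlap in CPM for 72.9% of all tested genes, with overloaded lower in 35.4%. Cxcl1 fell by 1.80 on the log2 scale (SE 0.18, 95% confidence interval -2.19 to -1.42, adjusted p = 1.1e-06, edgeR), a level 3.49-fold lower. The difference was smaller as UMIs per tube (-0.86, adjusted p = 0.00019, edgeR) and with a trend on abundance removed (-0.81, adjusted p = 4.5e-05, edgeR), as described below for all genes. The gene (ENSMUSG00000029380) lies on chromosome 5 of GRCm38 at 90891241-90893115 on the plus strand in GENCODE M21, with 4 exons in its coding transcript.

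Its neighbours on the same chromosome, Cxcl2 and Cxcl3, encode closely related neutrophil-attracting chemokines, and both were lower too. Cxcl2, 10.8 kb from Cxcl1, had 159 and 140 UMIs in sham and 55 and 62 in overloaded libraries (692, 634, 143 and 126 CPM). It fell by 2.31 on the log2 scale (SE 0.18, adjusted p = 1.2e-07, edgeR). Cxcl3, 102 kb from Cxcl1, had 16, 15, 2 and 5 UMIs and fell by 3.05 (SE 0.47, adjusted p = 7e-05, edgeR). Cxcl3 passed the filter through the sham libraries alone, so its test is not independent of that direction. For neither gene did the groups overlap. In CPM the groups did not overlap for 72.9% of tested genes, with overloaded lower in 35.4%.

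The start regions of Cxcl1, Cxcl2 and Cxcl3 are shown because these neighbours moved the same way and share sequence there. The sequences are the 120 bases before the RefSeq transcription start (GRCm38.p6, plus strand, 5′ to 3′), at chr5:90891125-90891244, chr5:90903779-90903898 and chr5:90785981-90786100, and capitals mark matches to a simplified NF-κB motif, GGG and TTCC with any 3 bases between them, searched on both strands.
Cxcl1: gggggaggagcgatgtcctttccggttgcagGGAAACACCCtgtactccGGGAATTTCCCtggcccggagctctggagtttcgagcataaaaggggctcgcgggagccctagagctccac
Cxcl2: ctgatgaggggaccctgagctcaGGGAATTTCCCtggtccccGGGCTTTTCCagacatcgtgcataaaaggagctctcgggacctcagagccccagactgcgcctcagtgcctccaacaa
Cxcl3: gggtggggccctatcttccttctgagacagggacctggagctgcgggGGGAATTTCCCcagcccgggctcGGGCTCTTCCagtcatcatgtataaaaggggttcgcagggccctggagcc
Cxcl1 and Cxcl2 share an unbroken run of 14 bases, gggaatttccctgg, that begins 71 bases before the start in Cxcl1 and 97 bases before it in Cxcl2. Cxcl3 shares 11 bases of it, gggaatttccc, with both. Each of the 3 windows held 3 matches, a pair of which overlap because the stretch gggaatttccc matches the motif on both strands. The motif occurred in 5.56% of the 32851 RefSeq mouse promoter entries of 300 bases searched. A match is a description of letters and shows neither binding nor a cause.

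Ccl2 and Ccl7, neighbours 8.26 kb apart on the plus strand of chromosome 11, encode ligands of Ccr2 that draw monocytes into tissue. Ccl2 (ENSMUSG00000035385, 11:82035571-82037453) had the second most UMIs of the 8 members in every library, with 137 and 116 UMIs in sham and 85 and 153 in overloaded libraries. Its levels were 596, 525, 221 and 310 CPM, so the groups did not overlap in CPM but did in raw UMIs. Overloaded was lower in CPM with no overlap for 35.4% of tested genes. Ccl2 fell by 1.06 on the log2 scale (SE 0.18, 95% confidence interval -1.45 to -0.68, adjusted p = 0.00021, edgeR), a level 2.09-fold lower. With the trend on abundance removed the difference was -0.42 (adjusted p = 0.070, edgeR). Compared as UMIs per tube, the difference was -0.09 (adjusted p = 0.76, edgeR) and did not pass the test. Ccl2 overlaps Gm17268, annotated on the opposite strand, and the strand setting of the counting was not given in the sources used here.

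Ccl7 (ENSMUSG00000035373, 11:82045712-82047525) had 42 and 43 UMIs in sham and 45 and 73 in overloaded libraries, and levels of 183, 195, 117 and 148 CPM. The overloaded libraries were both lower in CPM, as for 35.4% of tested genes, and both higher in raw UMIs. Its difference of -0.50 on the log2 scale (SE 0.22, 95% confidence interval -0.96 to -0.03) passed the threshold narrowly (adjusted p = 0.079, edgeR). The call was lost with DESeq2 (adjusted p = 0.37), with library totals alone (adjusted p = 0.45, edgeR) and with no filter (adjusted p = 0.28, edgeR). The sign turned to 0.47 when UMIs per tube were compared (adjusted p = 0.21, edgeR). Without sham 1, sham 2, overloaded 1 or overloaded 2 the difference was -0.54, -0.45, -0.34 or -0.69. Those fits leave 1 library in a group, so their spread comes from the other group alone. Ccl11, a further gene of this cluster that encodes the eosinophil attractant eotaxin and lies 10.3 kb from Ccl7, moved the other way. Ccl11 had 1 and 5 UMIs in sham and 40 and 32 in overloaded libraries and rose by 2.60 on the log2 scale (SE 0.55, adjusted p = 0.0011, edgeR). Ccl11 passed the filter through the overloaded libraries alone, so its test is not independent of that direction. Ccr2 itself had 0, 0, 0 and 2 UMIs.

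Cxcl10 encodes a chemokine induced by interferon that attracts T cells and natural killer cells through Cxcr3. It had 35 and 24 UMIs in sham and 40 and 72 in overloaded libraries, or 152, 109, 104 and 146 CPM. The groups overlapped in CPM, and Cxcl10 did not pass the test (log2 fold change -0.05, SE 0.26, 95% confidence interval -0.60 to 0.51, adjusted p = 0.90, edgeR). That interval includes both lower and higher shares, so an unchanged share is not shown. On the scale of UMIs per tube Cxcl10 was higher (log2 fold change 0.92, adjusted p = 0.037, edgeR), where the median of all genes was 1.01. The gene (ENSMUSG00000034855, 5:92346638-92348889, minus strand) overlaps Art3 on the opposite strand. Its start region is shown as a contrast to that of Cxcl1: 220 bases before the RefSeq start, chr5:92348890-92349109 on the minus strand, with the NF-κB motif and an interferon response motif, GAAA repeated after any 2 bases, in capitals.
Cxcl10: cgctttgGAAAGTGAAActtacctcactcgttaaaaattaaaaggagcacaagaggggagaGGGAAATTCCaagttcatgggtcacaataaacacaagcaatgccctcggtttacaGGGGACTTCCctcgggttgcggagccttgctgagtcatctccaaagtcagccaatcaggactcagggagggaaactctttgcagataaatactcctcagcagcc
The window held 2 matches to the NF-κB motif and 1 to the interferon motif, GAAAGTGAAA. Some match to that interferon motif, with any 2 bases between the repeats, was found in 3.44% of the entries. The part of these motifs in the values was not tested. Of the 9 interferon response genes tested, 2 were called higher and 5 lower, against 25.8% and 26.3% of all genes tested, with a median log2 fold change of -0.41 against 0.05 over all genes. Ifitm3, an antiviral membrane protein and the most abundant of them, had 186, 172, 256 and 264 UMIs and a log2 fold change of -0.41 that passed the test. Ifit1, an interferon-induced RNA-binding protein, rose by 3.21 (0, 3, 12 and 46 UMIs, adjusted p = 0.0038, edgeR), and passed the filter through the overloaded libraries alone. Irf1, a transcription factor of the pathway, fell by 1.34 (75, 80, 47 and 73 UMIs, adjusted p = 3.9e-05, edgeR). Of the interferon genes too low for the filter, Rsad2 had 0, 0, 8 and 38 UMIs, Ifit2 had 0, 1, 10 and 19, Oasl2 had 3, 0, 10 and 18, and Ifit3 had 0, 2, 5 and 13. All 4, named after their values were seen, were higher in the fit without the filter (adjusted p = 9.6e-08, 0.00042, 0.012 and 0.064, edgeR), which called 12.7% of all genes higher and 9.32% lower. Isg15, named likewise, was lower in that fit (9, 4, 2 and 3 UMIs, log2 fold change -2.19, adjusted p = 0.017, edgeR). Irf7 (0, 1, 3 and 2 UMIs) and Gbp3 (3, 3, 6 and 14 UMIs) were not called in it (adjusted p = 0.68 and 0.51, edgeR).

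Cxcl12 encodes the ligand of Cxcr4 and of the scavenging receptor Ackr3. It had 17 and 10 UMIs in sham and 53 and 59 in overloaded libraries, or 74.0, 45.3, 138 and 119 CPM. The overloaded libraries were higher on both scales with no overlap. In CPM that held for 37.5% of tested genes, and 72.9% did not overlap in either direction. Cxcl12 rose by 1.09 on the log2 scale (SE 0.31, 95% confidence interval 0.44 to 1.74, adjusted p = 0.0083, edgeR), a level 2.13-fold higher. As UMIs per tube the difference was 2.04 (adjusted p = 0.00035, edgeR), on a scale where the median of all genes was 1.01. Its rank among tested genes moved from 4343 to 2323. It remained higher in each of the 16 other fits. Among those with all libraries its call was narrowest with DESeq2 (adjusted p = 0.098). Leaving out a library leaves 1 in its group, so the spread then comes from the other group alone. The smallest log2 fold change of those fits was 0.79, without sham 2. The gene (ENSMUSG00000061353) lies on the plus strand of chromosome 6 at 117168535-117181367. The 120 bases before its RefSeq start, chr6:117168415-117168534, are shown because it was the tested member that rose, and they hold neither motif, so no letters are in capitals.
Cxcl12: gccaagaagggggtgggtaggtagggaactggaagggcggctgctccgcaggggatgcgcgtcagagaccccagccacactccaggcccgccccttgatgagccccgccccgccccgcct
Of the other genes with an entry, Ccl9 had 1 match to the NF-κB motif in its 300 bases, Cxcl14 had 1 to the interferon motif, and Cx3cl1 had neither. Ackr3 and Ccrl2, both called lower, had neither, but only the first of 3 entries was searched for Ccrl2. Cxcr4, which was not called, and Ccl6, too low to test, had neither as well. An AP-1 motif, TGANTCA, searched likewise and present in 7.81% of the entries, was found in Ccl9 and Cxcl10 alone of the members with an entry. Ccl2 and Ccl7, both called lower, had no entry and were not searched, so Cxcl1 was the only member called lower with a sequence. The absence of these letters from a window of this length says nothing about which factors act on Cxcl12.

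Of the receptors of Cxcl12, Ackr3 was called lower and Cxcr4 was not called. Cxcr4 had 46, 47, 97 and 126 UMIs (200, 213, 252 and 255 CPM) and did not pass the test (log2 fold change 0.30, SE 0.19, 95% confidence interval -0.10 to 0.69, adjusted p = 0.21, edgeR). Ackr3, which removes Cxcl12 from the surroundings of the cell, had 101, 87, 56 and 64 UMIs (440, 394, 146 and 130 CPM) and was 3.04-fold lower in overloaded MuSCs (SE of the log2 fold change 0.18, adjusted p = 4e-06, edgeR). The other receptor that could be tested, Ccrl2, a non-signalling receptor that binds chemerin, had 12, 13, 2 and 9 UMIs and fell by 2.12 (SE 0.49, adjusted p = 0.0021, edgeR). Ccrl2 passed the filter through the sham libraries alone. The remaining 7 receptors in the table were too low to test, and the largest of their totals was 9 UMIs over all libraries, for Cx3cr1.

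Proteins that cut or bind chemokines outside the cell were called in both directions: of 9 tested, 4 were higher and 3 lower, against 25.8% and 26.3% of all genes tested. Adam10, a membrane protease that sheds Cx3cl1 among other substrates, had 16, 5, 60 and 73 UMIs and rose by 1.69 on the log2 scale (SE 0.35, 95% confidence interval 0.97 to 2.42, edgeR). Mmp2, a secreted protease that cuts several chemokines, had 58, 54, 47 and 73 UMIs and a log2 fold change of -0.87 (SE 0.20). Of the heparan sulfate proteoglycans, on which chemokines are held at cell surfaces, Sdc4 had the most UMIs (422, 284, 375 and 345) and a log2 fold change of -0.91 (SE 0.19), Hspg2 had 76, 92, 69 and 108 UMIs and -0.90 (SE 0.19), and Gpc4 had 4, 7, 20 and 41 UMIs and 1.48 (SE 0.46). These 5 genes all passed the test. Sdc4 is also 1 of the satellite cell markers listed above.

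Cxcl14, Cx3cl1 and Ccl9 did not pass the expression filter and were not tested with the other genes. Cxcl14, a chemokine made constitutively by many epithelia, had 2 and 6 UMIs in sham and 24 and 13 in overloaded libraries (8.71, 27.2, 62.4 and 26.3 CPM), and the groups overlapped in CPM. Its pooled count ratio, scaled by library, was 2.37 with an exact interval of 1.09 to 5.90 that covers counting error only. Cxcl14 was called higher when the filter was dropped (1.33 on the log2 scale, adjusted p = 0.076, edgeR), but not with DESeq2 (adjusted p = 0.33). The fit without the filter called 5 of the 8 members, 3 higher and 2 lower. It called 22% of all 19353 genes, 12.7% higher and 9.32% lower, and most of those genes were too low for the filter. Cx3cl1 encodes fractalkine, a membrane-bound chemokine that is shed to act on macrophages with Cx3cr1. It had 3, 11, 7 and 13 UMIs (13.1, 49.8, 18.2 and 26.3 CPM), with the lowest and the highest of its levels both in sham, and a ratio of 0.733 (0.352 to 1.57). No difference in Cx3cl1 was detected in the fit without the filter (adjusted p = 0.73, edgeR) or with DESeq2 (adjusted p = 0.77), and the interval does not exclude one.

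Ccl9, a ligand of Ccr1 made by macrophages and osteoclasts among other cells, had 0 and 0 UMIs in sham and 7 and 14 in overloaded libraries (18.2 and 28.4 CPM). The exact lower limit of its count ratio, overloaded over sham and scaled by library, was 2.67, which covers counting error only. When all genes were tested without the filter, Ccl9 was past the threshold (adjusted p = 4e-04, edgeR), and with DESeq2 its adjusted p was 0.046. Ccl9 (ENSMUSG00000019122, 11:83572919-83578636, minus strand) lies 9.24 kb from Ccl6, and 3.95% of its 30-base stretches occur in transcripts of other genes. Other chemokines of low count, named here after their values were seen, were also at or near 0 in sham: Ccl6 had 0, 0, 5 and 39 UMIs, Pf4 had 0, 0, 11 and 20, and Ccl4 had 0, 0, 2 and 16. Ccl8 had 0, 1, 0 and 22 UMIs, nearly all in overloaded 2. Others did not follow this pattern, among them Cxcl5 with 4, 2, 5 and 4 UMIs, Ccl27a with 3, 1, 2 and 0 and Ppbp with 2, 2, 0 and 0. The macrophage and leukocyte markers had 5, 9, 116 and 306 UMIs in the same libraries, highest in overloaded 2, and their part in the Ccl9 counts was not tested. In the sham libraries Cxcl1 had 474 and 369 UMIs and Ccl2 had 137 and 116, where those leukocyte markers had 5 and 9. There the satellite cell markers had 1694 and 1451 UMIs, the fibro-adipogenic markers 940 and 869, and the mural markers 197 and 167. The fibro-adipogenic sum was led by Col3a1 (508 and 461), with Pdgfra at 0 and 0, and the mural sum by Acta2 (115 and 109). The part of any of these cells in the Cxcl1 and Ccl2 counts was not tested.

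Cxcl1 took a smaller share of the chemokine transcripts in both overloaded libraries, and Cxcl12 a larger one. The 8 genes together had 710, 579, 502 and 620 UMIs in sham 1, sham 2, overloaded 1 and overloaded 2, or 0.263%, 0.222%, 0.129% and 0.128% of each library. Cxcl1 took 66.8% and 63.7% of them in sham and 48.0% and 36.0% in overloaded libraries, and Cxcl12 took 2.39% and 1.73% against 10.6% and 9.52%. Without Cxcl1, the other 7 summed to 1027 and 951 CPM in sham and 679 and 804 CPM in overloaded libraries.

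**Figure D2:**
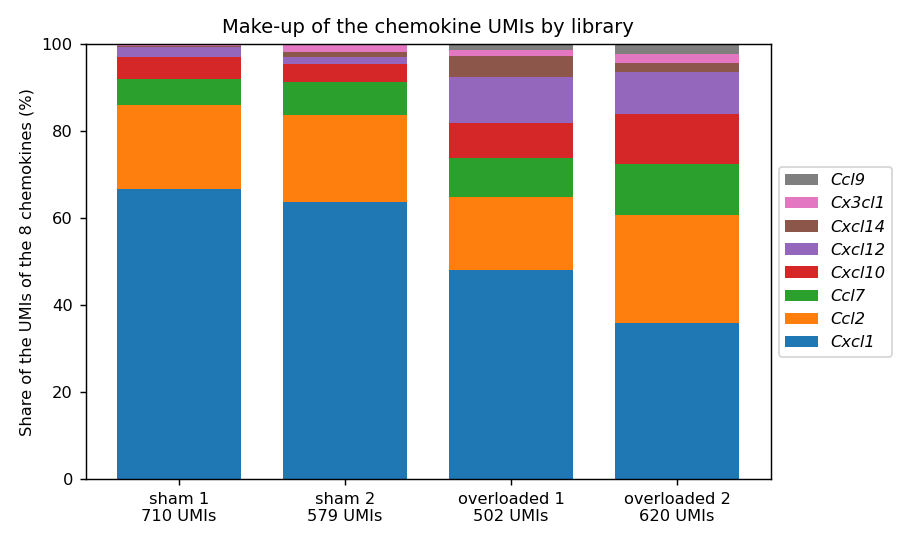
Share in percent (vertical axis) of the UMIs of the 8 chemokines that each gene took in each of the 4 libraries, with the number of chemokine UMIs under each bar. Cxcl1 takes the most in every library and less in both overloaded libraries, where Cxcl12 takes 10.6% and 9.52%.

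In sham MuSCs the order of mean levels was Cxcl1 (1867 ± 277 CPM, SD, n = 2), Ccl2 (561 ± 50.1), Ccl7 (189 ± 8.47), Cxcl10 (131 ± 30.8), Cxcl12 (59.6 ± 20.3), Cx3cl1 (31.4 ± 26.0), Cxcl14 (17.9 ± 13.1) and Ccl9 at 0. The first 5 were separated from each other with no overlap between libraries, while Cxcl12 overlapped Cx3cl1 and Cx3cl1 overlapped Cxcl14. In overloaded MuSCs Cxcl1 (539 ± 124) and Ccl2 (265 ± 62.8) still led. Ccl7 (132 ± 21.8), Cxcl12 (129 ± 13.0) and Cxcl10 (125 ± 29.6) could no longer be ordered beyond their spread, and Cxcl14 (44.4 ± 25.5), Ccl9 (23.3 ± 7.18) and Cx3cl1 (22.3 ± 5.75) followed, each overlapping the next.

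Genes of the NF-κB pathway were examined beside the chemokines because several of those are its known targets. Of 16 pathway genes tested, 13 were called lower and 1 higher, against 26.3% and 25.8% of all genes tested, with a median log2 fold change of -1.48 against 0.05 over all genes. Of these 16, 2 were among the most abundant 10% of genes, of which 70.8% were called lower. Nfkb1, which encodes a DNA-binding subunit, had 314, 342, 160 and 211 UMIs and fell by 1.79 on the log2 scale (SE 0.16, adjusted p = 3.9e-07, edgeR). Rela, the main activating subunit, had 79, 68, 28 and 34 UMIs and fell by 2.20 (SE 0.21, adjusted p = 7.4e-07, edgeR). Nfkbia, which encodes the inhibitor IκBα and is itself a target, had 315, 292, 190 and 203 UMIs and fell by 1.58, and Nfkbiz, a nuclear co-regulator, had 127, 96, 48 and 54 UMIs and fell by 2.08. DNA-binding subunits and inhibitors were both among the genes that fell. Ikbkg, a subunit of the activating kinase, was the gene called higher (2, 4, 12 and 21 UMIs), and it passed the filter through the overloaded libraries alone.

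**Figure D3:**
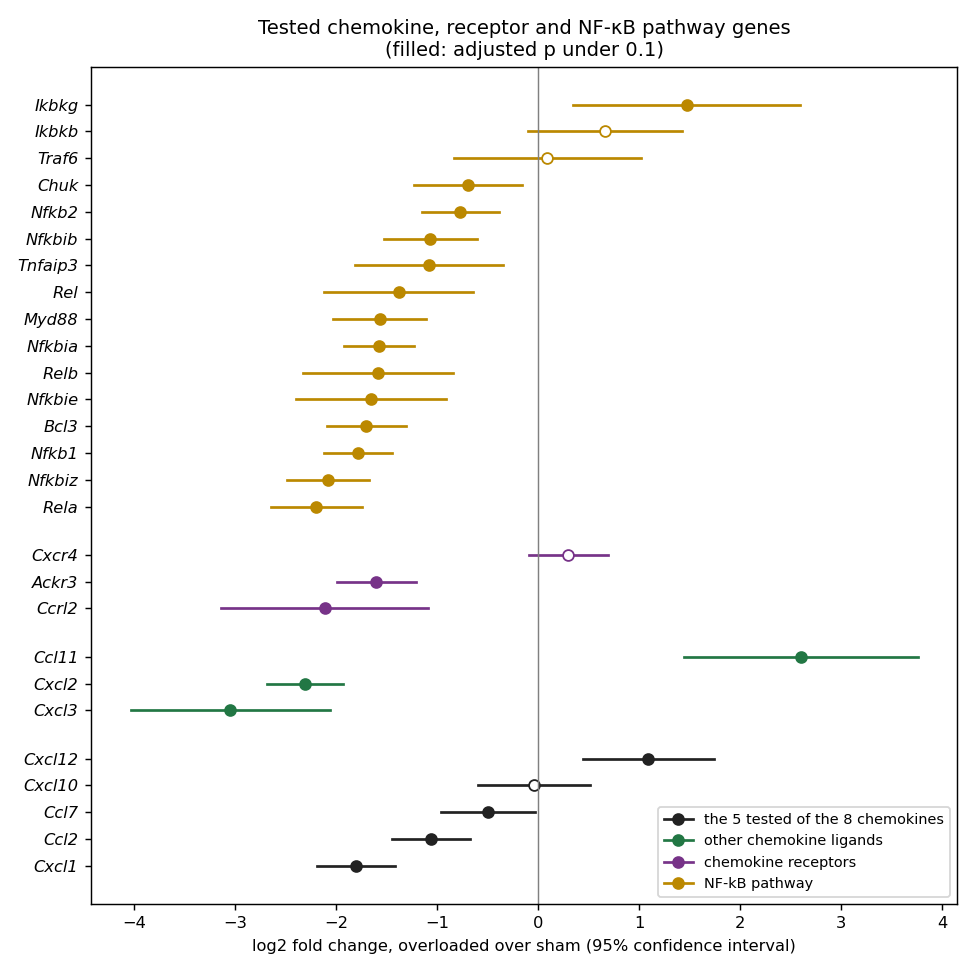
Log2 fold change, overloaded over sham (horizontal axis), with 95% confidence interval for the tested members of the 8 chemokines, the other tested chemokine ligands, the tested receptors and the NF-κB pathway genes. Filled points have an adjusted p under 0.1, and Cxcl12, Ccl11 and Ikbkg are the filled points to the right of 0.

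Of 6 further cytokine and adhesion genes linked to NF-κB, 4 were called lower and none higher, against 26.3% of all genes called lower, and 3 were among the most abundant 10%. Cebpb, a transcription factor of acute inflammation, had 308, 326, 174 and 185 UMIs (log2 fold change -1.77), its relative Cebpd had 234, 228, 148 and 138 (-1.64), and Lif, a cytokine of the Il6 family, had 18, 22, 10 and 8 (-2.09). Vcam1, an adhesion molecule that is also counted among the satellite cell markers, had 209, 175, 184 and 215 UMIs (-0.90). Il6 itself did not pass the test (17, 14, 19 and 25 UMIs, log2 fold change -0.46). All 17 immediate early and heat shock genes that are known to respond to tissue dissociation were called lower, with a median of -1.58, and all 17 were among the most abundant 10% of genes, of which 70.8% were called lower (26.3% of all genes). They included Fosb (293, 314, 106 and 157 UMIs, -2.18), Egr1 (411, 433, 234 and 250, -1.75) and Junb (445, 460, 261 and 277, -1.70). The 17 genes together had 4775, 4732, 3009 and 3734 UMIs, or 20785, 21436, 7824 and 7562 CPM, and the most abundant was Hspa1b with 610, 588, 495 and 581 UMIs. They moved with Cxcl1, Cxcl2 and Ccl2, and their part in those values was not tested.

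Of the satellite cell markers, 6 of 11 were called lower and 2 higher, against 26.3% and 25.8% of all genes, with a median of -0.84, and 9 of the 11 were among the most abundant 10%. Pax7 fell by 0.84 on the log2 scale, Calcr, a receptor of quiescent MuSCs, fell by 2.60 (37, 57, 15 and 15 UMIs), and Cd34 fell by 1.95 (32, 38, 20 and 15 UMIs). Myf5 had 244, 168, 388 and 467 UMIs and did not pass the test (0.10). The markers called higher were Itga7, an integrin subunit (88, 77, 232 and 280 UMIs, log2 fold change 0.67, adjusted p = 0.0036, edgeR), and Cdh15, encoding M-cadherin (57, 61, 154 and 162 UMIs, 0.47, adjusted p = 0.049, edgeR). All 6 myofiber genes tested were called higher, against 25.8% of all genes, led in abundance by Acta1 (120, 66, 299 and 342 UMIs) and in fold by Myh4 (10, 5, 145 and 79 UMIs, log2 fold change 2.96), and the myofiber markers summed to 390, 199, 1195 and 1443 UMIs.

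The genes whose levels followed that of Cxcl1 most closely over the 4 libraries, by root mean square difference of centred log2 levels among the 7228 tested genes, were Tsc22d2 (0.041), Phlpp1 (0.047) and Prkab2 (0.056). Tsc22d2 had 233, 184, 116 and 116 UMIs, Phlpp1 had 21, 16, 10 and 10, and Prkab2 had 81, 70, 44 and 41. With 4 libraries such likeness is a description only.

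Abundance was related to fold change across all genes, which bears on Cxcl1 and Ccl2 as the most abundant members. Among the most abundant 10% of tested genes the median was -0.74 on the log2 scale and 70.8% were called lower, whereas the median was 0.53 in the least abundant 10%. The 200 genes closest in abundance to Cxcl1 had a median of -0.91 and those closest to Ccl2 a median of -0.74, against -1.80 and -1.06 for the genes themselves. When this trend was removed through offsets, Cxcl1 remained lower (-0.81, adjusted p = 4.5e-05, edgeR), Ccl2 remained lower by less (-0.42, adjusted p = 0.070), Ccl7 was no longer called (-0.35, adjusted p = 0.24), and Cxcl12 kept its rise (1.02, adjusted p = 0.013). The UMIs were 6 bases long, which allows 4096 different tags per gene and library, and the gene with the most UMIs summed over the libraries, mt-Rnr2, had 753, 714, 774 and 1011, or 0.279%, 0.274%, 0.200% and 0.209% of the libraries. The highest count of any gene in a single library was 1102, for Actb in overloaded 1. Cxcl1 had used 11.6%, 9.01%, 5.88% and 5.44% of those tags. Raising the counts for tags drawn more than once left Cxcl1 at -1.84, while tags lost by merging neighbours that differ by 1 base could not be restored from the counts. Counts of abundant genes may therefore be compressed, which bears on the level, rank, share and fold change of Cxcl1, and its part in the trend was not tested.

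**Figure D4:**
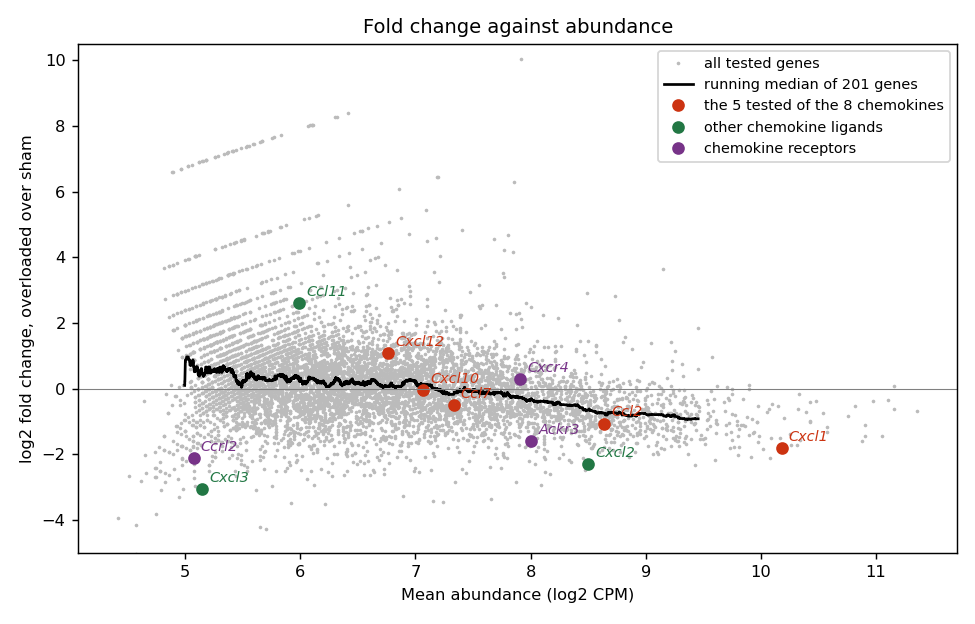
Log2 fold change, overloaded over sham (vertical axis), against mean abundance in log2 CPM (horizontal axis) for all 7228 tested genes (grey), with their running median (black line) and the tested chemokines and receptors named. The median falls below 0 at high abundance, and Cxcl1, Ccl2 and Cxcl2 lie below it.

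The results for the 5 tested members under every setting are plotted below. Cxcl1 was lower and Cxcl12 higher with an adjusted p under 0.1 in all of them, whereas Ccl7 lost its call in most and Cxcl10 changed sign.

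**Figure D5:**
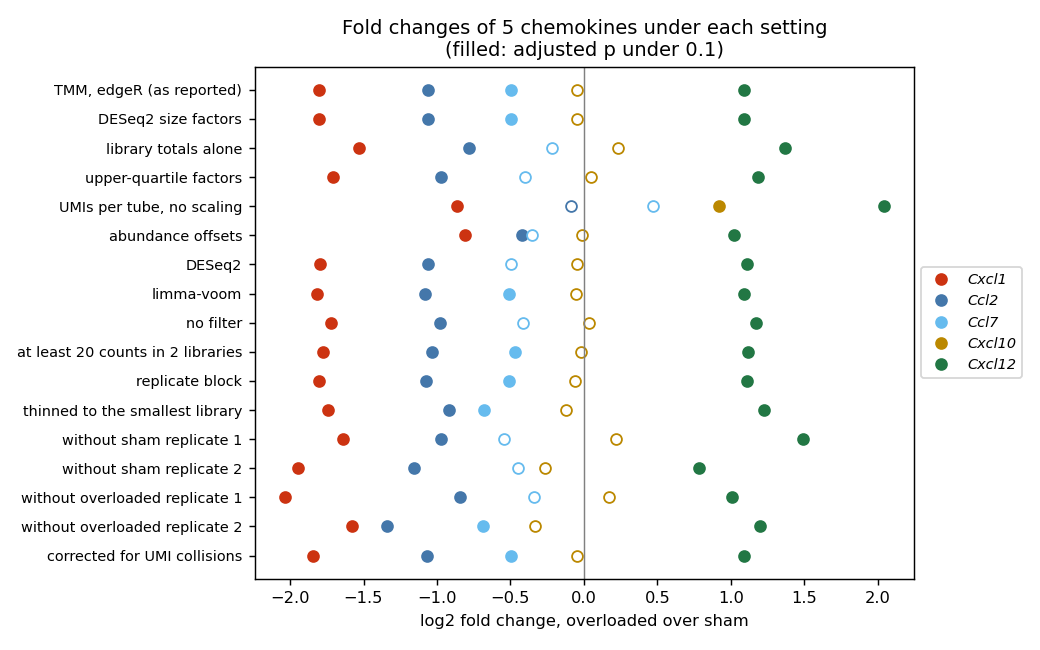
Log2 fold change, overloaded over sham (horizontal axis), of 5 chemokines in the edgeR fit with TMM and in 16 other fits (vertical axis), each point a gene in a fit and filled where the adjusted p was under 0.1. Points of Cxcl1 stay left of 0 and those of Cxcl12 right of 0 throughout.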

How the data were processed

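The deposited table held UMI counts per gene for 4 libraries. Per the labels and the study's methods, the authors extracted UMIs with UMI-tools 1.0.0, mapped reads to GRCm38 with HISAT2 2.1.0 and counted them per gene with featureCounts 1.6.4 and UMI-tools, which removes duplicate UMIs. The annotation release and strand setting were not given in the sources used here, and the study's own test used DESeq2 1.22.2.

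Counts were analysed in edgeR 4.0.16 (R 4.3.3) with TMM scaling, a filter of at least 10 counts (15 in total, scaled to library size) and the quasi-likelihood test across 7228 genes at an adjusted p under 0.1. The standard error was derived from the F statistic. Of the 2-fold and 4-fold changes planted in simulated counts of this comparison (6932 genes), 58.4% and 95.4% were recovered, with 6.25% of calls false. They were planted in only 89 and 87 of the tested genes, in both directions, with the same dispersion for every gene and no trend on abundance. The data had 52.1% of genes called and such a trend, so these rates may not hold for them. An exact permutation test of 2 against 2 libraries cannot give less than p = 0.333 and was not used. Exact intervals cover counting error only.

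The members and gene lists were chosen with earlier results of these data known. Named genes were the 8 members, other chemokine ligands and receptors that passed the filter, the most abundant and most changed members of each list (not all of them are described), and the 3 genes most like Cxcl1. Chemokine and interferon genes and receptors below the filter, and some cell type markers and other listed genes, were named after their values were seen. Alternatives used other scalings, DESeq2 1.42.0, limma-voom 3.58.1, other filters, thinning, abundance offsets, a replicate block and each library left out, and 1, the correction for repeated UMIs, was added after seeing the data. A fit with a library left out has 1 library in that group, so its spread comes from the other group alone. Sequences came from RefSeq (GRCm38.p6) and positions from GENCODE M21. Promoter entries were matched for 6 of the 8 members, all but Ccl2 and Ccl7.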

Additional observations from a re-analysis of the deposited data

How the results depend on the processing

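Cxcl1 and Cxcl12 kept their direction and their call under all 16 alternatives for single genes, and Ccl2 under 15, the exception being UMIs per tube. Ccl7 lost its call under 8 and reversed under 1, at 0.47 for UMIs per tube. Cxcl10, never called in the main comparison, reversed to 0.23 with library totals, 0.047 with upper-quartile factors, 0.034 with no filter and 0.92 for UMIs per tube, and ranged from -0.33 to 0.22 when single libraries were left out (0.22 without sham 1, 0.17 without overloaded 1). The cause was not tested. DESeq2 called 2182 genes in place of 3766 while testing 10348, and leaving out single libraries gave 3070 to 3435 calls over all genes, 3 or 4 over the members and 63 to 73 over the other listed genes (77 with all libraries). Without a filter 2451 genes were higher and 1803 lower. The median log2 fold change of all genes was 0.05 with TMM and 1.01 for UMIs per tube, 0.33 with library totals, 0.30 with no filter, 0.23 with DESeq2 and 0.15 with upper-quartile factors.

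With the replicate number as a block, 3670 genes and 4 members were called, and no call of a member changed. The differences between same-numbered libraries did not go together (r = -0.03 across 7228 genes, which are not independent). Libraries of a group differed only somewhat more than sampling gives (chi-square per degree of freedom 1.31 and 1.5), so this check could miss a pairing. The reported fit did not pair the libraries, and whether they are paired remains unknown.

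Ccl9, Cxcl14 and Cx3cl1, with 21, 45 and 34 UMIs over all libraries, did not pass the filter and were tested only with DESeq2 and without the filter.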
